A study of Homo sapiens with 6 samples.

Results

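The hepatocyte transcription factors described here are 8 listed genes, HNF4A, FOXA1, FOXA2, FOXA3, CEBPA, ONECUT1, NR5A2 and PROX1, whose probes were taken wherever the platform's probe annotation gave a listed symbol. Of the 8 factors, 7 had a named probe and HNF4A had none, so HNF4A is not analysed here. The 7 factors had 12 probes of the 47323 on the array, and each of the 7 had at least 1 probe above the detection filter in both sets of values used below. RNA was measured on Illumina expression BeadChips in cells labelled as Huh7, an established human hepatocellular carcinoma line. Sorafenib-treated cells (3 arrays, 24 h, a dose the series text gives as 3 mM) were compared with cells given DMSO, the drug's solvent, for 24 h (3 arrays). Sorafenib is a multikinase inhibitor used against liver cancer. Nothing in the labels says that the 3 replicates of a group came from separate cultures, so the spread between them may be technical.

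Values came from 2 sources, the deposited non-normalized signals and the deposited value table, and both were labelled as the same 6 samples. They do not hold the same arrays: a sample's own pair of columns correlated at a Spearman rho of 0.848 to 0.863 over all probes, below the 0.925 to 0.942 between any pair of signal arrays. The 2 sources were therefore tested separately, which of them came from the labelled cells was not settled, and no difference in response between them was tested. Array medians ranged from 120.2 to 144.5 signal units, and 16476 to 17476 probes were detected per array. In the value table a probe counted as detected in a column where it was above 7.40, a level taken from the signals. All 10 hepatocyte markers checked were detected in both sources. Among markers of other cells, PTPRC, CD3E, MS4A1, COL1A1, COL3A1, DCN, VWF, CDH5, KDR and TEK were detected in neither source. The biliary markers KRT19, SOX9, EPCAM and SPP1 (4 of 6) and the immune markers CD68, CD14 and LYZ (3 of 6) were detected in both. Of the 7 stromal markers, ACTA2 and PDGFRB were detected on signal arrays, and of the 5 endothelial markers 0 were. The value table differed: the stromal markers COL1A2, LUM and PDGFRB and the endothelial marker PECAM1 were detected there. Of these, COL1A2 and PDGFRB did not pass its filter. ACTA2 was detected in no value-table column, although it averaged 13.59 (log2 level) on the sorafenib signal arrays and 12.94 on the DMSO signal arrays.

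Hepatocyte identity is held by a small set of DNA-binding proteins that act on one another's genes. The forkhead proteins FOXA1, FOXA2 and FOXA3 open closed chromatin at liver enhancers, the bZIP protein CEBPA (C/EBP alpha) switches on genes of the resting, metabolically active hepatocyte, ONECUT1 (HNF6) acts in liver and bile duct development, NR5A2 (LRH-1) is a nuclear receptor of bile acid and cholesterol metabolism, and PROX1 is a homeobox protein needed for hepatoblast expansion. In liver cancer, lower levels of several of them go with loss of the differentiated state.

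The 8 genes lie at these positions of GRCh38.p14: FOXA1 at chr14:37589552-37595249, FOXA2 at chr20:22580998-22585490, FOXA3 at chr19:45864326-45873797, and CEBPA at chr19:33299934-33302534. ONECUT1 lies at chr15:52755053-52790336, NR5A2 at chr1:200027710-200177415, PROX1 at chr1:213983151-214041510 and HNF4A at chr20:44355699-44434596. Promoter windows of 250 bases before a gene's start, from RefSeq on GRCh38.p14, were matched for 6 of the 8 genes, with 8 windows in all. Windows of 3 genes are printed 5′ to 3′ on the gene's strand, because FOXA1 and NR5A2 changed in opposite directions on the signal arrays and each holds a forkhead match, and CEBPA changed with FOXA1 and holds no match. Capitals mark the forkhead match, which reads TGTTTNC on the other strand.
FOXA1 (chr14:37595250-37595499, minus strand): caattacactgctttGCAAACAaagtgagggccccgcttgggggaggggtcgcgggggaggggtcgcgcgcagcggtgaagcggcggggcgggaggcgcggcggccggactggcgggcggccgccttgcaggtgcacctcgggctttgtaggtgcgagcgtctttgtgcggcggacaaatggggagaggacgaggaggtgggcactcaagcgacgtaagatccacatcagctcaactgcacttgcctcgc
NR5A2, second listed start (chr1:200042341-200042590, plus strand): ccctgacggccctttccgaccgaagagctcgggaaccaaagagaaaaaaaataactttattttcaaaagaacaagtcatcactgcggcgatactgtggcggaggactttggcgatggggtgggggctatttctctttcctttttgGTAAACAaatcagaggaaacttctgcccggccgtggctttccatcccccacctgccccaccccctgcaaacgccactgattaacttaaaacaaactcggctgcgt
CEBPA (chr19:33302535-33302784, minus strand): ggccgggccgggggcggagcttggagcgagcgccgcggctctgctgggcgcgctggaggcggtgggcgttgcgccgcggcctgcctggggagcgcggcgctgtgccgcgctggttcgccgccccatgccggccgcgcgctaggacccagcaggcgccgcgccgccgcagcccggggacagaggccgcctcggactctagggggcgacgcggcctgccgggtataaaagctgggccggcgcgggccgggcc
The motifs searched on both strands were TGTTTNC (forkhead), TTGCNNAA (C/EBP), ATCNAT (ONECUT), CAAAGTCCA (HNF4) and CAAGGNCA (NR5A2). Over 35116 promoter windows of the same length, 15.5% held the forkhead letters, 9.05% the C/EBP letters, 15.0% the ONECUT letters, 0.325% the HNF4 letters and 4.51% the NR5A2 letters. Counted back from the start site, the FOXA1 match began at position -235 and the match at the second NR5A2 start at position -105. Both HNF4A windows held 1 ONECUT match each. The windows of FOXA3, ONECUT1, CEBPA and the first NR5A2 start held none of the 5 motifs. A match is a string of letters and not a shown binding site.

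On the signal arrays, sorafenib-treated cells had higher RNA levels of all 3 FOXA factors and of CEBPA, and lower levels of NR5A2, with changes of 1.27-fold to 1.67-fold. Of the 7 measured factors, 4 were higher and 1 was lower at a limma adjusted p under 0.05, against 31.0% of the 10523 genes tested (16.8% higher and 14.2% lower). With median scaling the counts were 3 higher and 0 lower, against 17.2% of all genes, and with replicate number as a block 5 higher and 1 lower, against 44.0%. The median log2 change was 0.42 over the 7 factors and -0.001 over all genes tested. Among the value-table columns, 1 of the 7 passed the test, FOXA1, which was higher, against 19.5% of 10595 genes (11.3% higher and 8.17% lower). The fit with the replicate block called 3 there, FOXA1, ONECUT1 and NR5A2, all higher, against 34.6% of all genes. There the median change was 0.15 over the 7 factors and 0.008 over all genes. The factors and the gene lists below were chosen with earlier results of these data known, so their shares beside all genes carry no test. In a culture read in bulk, fewer cells of a type and less RNA per cell cannot be told apart.

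**Figure D1:**
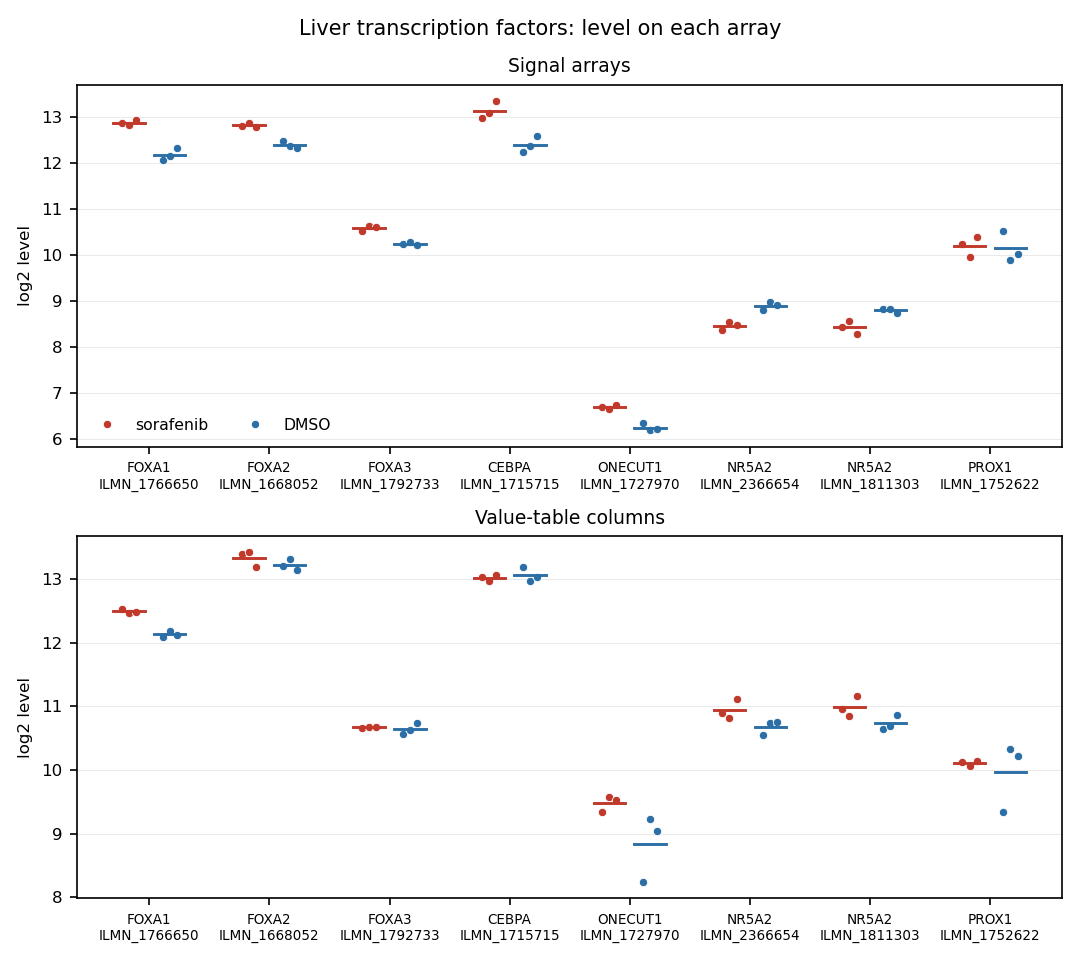
Log2 level (y axis) of the 7 measured factors on each array, for signal arrays (top, background-corrected and quantile-normalized) and value-table columns (bottom); points are single arrays, lines are group means, sorafenib in red and DMSO in blue (n = 3 each). On the signal arrays the sorafenib points of FOXA1, FOXA2, FOXA3 and CEBPA lie above all DMSO points and those of both NR5A2 probes below them, while in the value table the NR5A2 points of the sorafenib columns lie above those of at least 2 of the 3 DMSO columns.

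FOXA1, a pioneer factor that binds nucleosomal DNA ahead of other regulators, passed the test in both sources. It was the 1 factor to do so in the fit without the replicate block. Its probe ILMN_1766650 read 12.87, 12.83 and 12.94 (log2 level) on the sorafenib signal arrays and 12.06, 12.14 and 12.32 on the DMSO arrays. Every sorafenib array was above every DMSO array. The means were 12.88 ± 0.05 and 12.18 ± 0.13 (SD, n = 3 each), a log2 change of 0.70 (SE 0.08, 95% confidence interval 0.53 to 0.87, limma adjusted p = 0.000206), or 1.63-fold. The sorafenib columns of the value table read 12.53, 12.46 and 12.49 and the DMSO columns 12.09, 12.19 and 12.12. These groups did not overlap either, and the log2 change of FOXA1 there was 0.36 (SE 0.06, interval 0.23 to 0.49, limma adjusted p = 0.00486), or 1.28-fold. The call held in all 14 alternative fits on the signals and all 12 on the value table.

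FOXA2, which also acts in fasting metabolism and bile acid handling, rose on the signal arrays. Its probe ILMN_1668052 read 12.81, 12.87 and 12.78 on the sorafenib arrays and 12.48, 12.38 and 12.33 on the DMSO arrays. All sorafenib values were above all DMSO values, with a log2 change of 0.42 (SE 0.06, interval 0.28 to 0.56, limma adjusted p = 0.00123), or 1.34-fold. Value-table readings of FOXA2 were 13.40, 13.42 and 13.19 in the sorafenib columns and 13.20, 13.31 and 13.15 in the DMSO columns. There the groups overlapped, and the change of 0.12 had an interval of -0.06 to 0.29 and an adjusted p of 0.337. The other FOXA2 probes, ILMN_1678728 and ILMN_1763712, were detected on no array of either source, so FOXA2 rests on 1 probe.

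FOXA3, the forkhead member that keeps glucose transport and fasting genes active in adult mouse liver, showed the smallest change of the called factors on the signal arrays. Probe ILMN_1792733 read 10.52, 10.63 and 10.61 on the sorafenib arrays and 10.23, 10.28 and 10.22 on the DMSO arrays. The groups did not overlap, with a log2 change of 0.34 (SE 0.07, interval 0.19 to 0.50, limma adjusted p = 0.00615), or 1.27-fold. With median scaling in place of quantile normalization the change was 0.31 and the adjusted p 0.222, the highest of the 14 alternatives, whose lowest was 0.00149. For FOXA3 the value table held 10.66, 10.68 and 10.67 in the sorafenib columns and, in the DMSO columns, 10.57, 10.63 and 10.75. The sorafenib values fell inside the DMSO range, and the change was 0.02 (interval -0.14 to 0.18, adjusted p = 0.860).

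CEBPA had the largest change among the factors on the signal arrays and none past the test in the value table. Its probe ILMN_1715715 read 12.97, 13.09 and 13.35 on the sorafenib arrays and 12.23, 12.37 and 12.58 on the DMSO arrays. All sorafenib values were above all DMSO values. The means were 13.14 ± 0.19 and 12.40 ± 0.18 (SD, n = 3 each), a log2 change of 0.74 (SE 0.11, interval 0.49 to 0.99, limma adjusted p = 0.00125), or 1.67-fold. The value-table levels of CEBPA were 13.04, 12.96 and 13.07 in the sorafenib columns and 13.19, 12.97 and 13.03 in the DMSO columns. Those groups overlapped, and the change of CEBPA was -0.04 (interval -0.19 to 0.12, adjusted p = 0.748).

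ONECUT1 did not pass the test in either source in the fit without the replicate block, although its groups did not overlap in either. In the fit with the block it passed in both sources, and was higher in both. Probe ILMN_1727970 read 6.69, 6.65 and 6.74 on the sorafenib signal arrays and 6.36, 6.19 and 6.21 on the DMSO arrays. These values lie close to the level at which a probe is detected, 5.99 to 6.19 on the 6 arrays. The log2 change was 0.44 (SE 0.15, interval 0.10 to 0.78, limma adjusted p = 0.0589). With replicate number as a block the adjusted p was 0.0489, and without background correction the change was 0.20. Over the 14 alternatives the adjusted p ranged from 0.0112 to 0.159, with 4 of them under 0.05. The same probe read 9.35, 9.58 and 9.53 in the sorafenib columns of the value table and 8.24, 9.23 and 9.05 in its DMSO columns. DMSO replicate 1 was the low column there. The change was 0.64 (SE 0.22, interval 0.16 to 1.13, adjusted p = 0.0708), with an adjusted p of 0.000415 in the fit with the replicate block. It was 0.34 (adjusted p = 0.0787) without DMSO replicate 1 and 0.84 (adjusted p = 0.0362) without DMSO replicate 2, and over the 12 alternatives the adjusted p reached 0.187. The second probe, ILMN_2114812, was detected on no signal array and changed by 0.02 in the value table (adjusted p = 0.938). The difference between the ONECUT1 probes was not tested.

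NR5A2 was the factor that fell on the signal arrays, and both of its detected probes fell. Probe ILMN_2366654 read 8.37, 8.54 and 8.48 on the sorafenib arrays and 8.82, 8.98 and 8.91 on the DMSO arrays. All sorafenib values were below all DMSO values, with a log2 change of -0.44 (SE 0.10, interval -0.66 to -0.22, limma adjusted p = 0.00996), or 1.35-fold lower. Probe ILMN_1811303 read 8.45, 8.58 and 8.28 on the sorafenib arrays and 8.82, 8.83 and 8.75 on the DMSO arrays. Its groups did not overlap either, and it fell by 0.37 on the log2 scale (adjusted p = 0.0291). The call for the NR5A2 gene was lost with median scaling (-0.43, adjusted p = 0.0761) and without DMSO replicate 2 (-0.40, adjusted p = 0.0505), and it held in the other 12 of 14 alternatives, with an adjusted p as low as 0.00188. The third probe, ILMN_1688932, was detected on no array of either source.

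NR5A2 went the other way in the value table. Probe ILMN_2366654 read 10.89, 10.82 and 11.12 in the sorafenib columns and 10.54, 10.75 and 10.75 in the DMSO columns. Every sorafenib column was above every DMSO column, with a change of 0.27 (interval 0.05 to 0.48, limma adjusted p = 0.0869). Probe ILMN_1811303 read 10.96, 10.86 and 11.16 in the sorafenib columns and 10.65, 10.70 and 10.87 in the DMSO columns. Its groups overlapped by 1 column, and the change was 0.25 (interval 0.04 to 0.46, adjusted p = 0.102). With replicate number as a block this probe had an adjusted p of 0.00664, the 1 of 12 alternatives under 0.05, and the highest was 0.266.

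PROX1 showed no change that passed the test. Its probe ILMN_1752622 read 10.24, 9.97 and 10.39 on the sorafenib signal arrays and 10.53, 9.89 and 10.02 on the DMSO arrays. The groups overlapped, with a change of 0.05 and an interval of -0.31 to 0.42 (limma adjusted p = 0.844). The value-table columns held 10.13, 10.06 and 10.14 for sorafenib and 9.35, 10.33 and 10.22 for DMSO. DMSO replicate 1 was the low column, as it was for ONECUT1. The change of PROX1 there was 0.15 (interval -0.34 to 0.63, adjusted p = 0.691) and -0.16 without DMSO replicate 1.

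**Figure D2:**
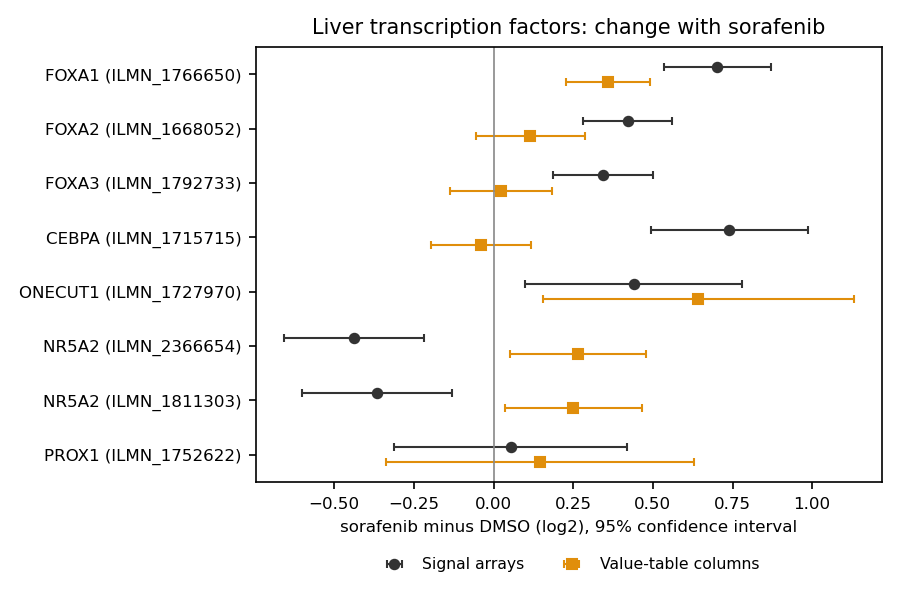
Log2 change, sorafenib minus DMSO (x axis), of 8 probes of the 7 measured factors (y axis) with 95% confidence intervals from limma, as circles for signal arrays and squares for value-table columns (3 arrays a group in each). FOXA1 lies above 0 in both sources, CEBPA at 0.74 on the signal arrays and -0.04 in the value table, and both NR5A2 probes lie below 0 on the signal arrays and above 0 in the value table.

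Counted by groups that did not overlap, 6 of the 7 factors differed on the signal arrays, against 47.5% of all genes. Of these, 5 were higher and 1 lower, against 24.6% and 22.8% of all genes. The value table had 2 of the 7 factors without overlap, against 39.8% of all genes, and both were higher, against 21.7%, with 0 lower, against 18.1%. These counts use the probe of highest mean level for each gene. For NR5A2 that was ILMN_2366654 on the signals and ILMN_1811303 in the value table.

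The 2 sources also differed in the level of the factors in DMSO-treated cells, compared probe by probe with the signals quantile-normalized without background correction. NR5A2 probe ILMN_2366654 averaged 9.17 ± 0.07 on the signal arrays and 10.68 ± 0.12 in the value table (SD, n = 3 each). ONECUT1 probe ILMN_1727970 averaged 7.47 ± 0.04 on the signal arrays and 8.84 ± 0.53 in the value table. FOXA2 averaged 12.41 on the signal arrays and 13.22 in the value table, CEBPA 12.41 and 13.06, and FOXA3 10.34 and 10.65, in each case with no overlap between the DMSO ranges. FOXA1 averaged 12.20 and 12.13, and PROX1 10.26 and 9.96, with overlapping ranges. Over the 19020 probes above the filter in either source, the median absolute difference was 0.40 and the 90th percentile 1.35, and 71.1% had DMSO ranges that did not overlap. ONECUT1 probe ILMN_1727970 (-1.37, signal minus value table) and both detected NR5A2 probes (-1.51 and -1.65) lay beyond that 90th percentile. The other named probes of these factors lay within it.

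For each factor, the genes whose profile over the 6 signal arrays was most like its own were taken by Pearson's r among the genes tested. These values describe 6 arrays that also differ in treatment, and carry no test. FOXA1 was closest to PLA2G12B and FAM3B (r = 0.998 each). FOXA2 was closest to ZNF425 (0.999) and SESN1 (0.997), and FOXA3 to FAM151A (0.999) and EFEMP2 (0.997). CEBPA was closest to SERPINA6, which encodes the plasma carrier of cortisol (1.000 after rounding), and to CYB561A3 (0.998). ONECUT1 was closest to DPP4 and PEBP1, and NR5A2 to SREBF1, the gene of the sterol-regulated factor SREBP-1, and NAA20, all at r = 0.996. PROX1 was closest to RNF185 (0.963) and PPP1R9A (0.960).

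Other transcription factors of the liver were followed in a list of 31 genes, of which 26 had a named probe. On the signal arrays 23 were tested, and 7 rose and 3 fell (43.5%, against 31.0% of all genes), with a median log2 change of 0.13. The fit with the replicate block called 16 of the 23, against 44.0% of all genes. NR0B2 (SHP), an orphan receptor without a DNA-binding domain that represses NR5A2 and HNF4A and is itself induced through NR5A2, changed most. It read 7.80, 7.71 and 7.34 on the sorafenib arrays and 10.08, 10.15 and 10.18 on the DMSO arrays. That is a log2 change of -2.52, or 5.73-fold lower (SE 0.12, limma adjusted p = 2.65e-06), with no overlap. NR0B2 was not above the filter in the value table. ONECUT2, the paralog of ONECUT1, fell by 0.94 on the signal arrays, and the stress-responsive ATF5 fell by 0.45.

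The factors that rose on the signal arrays came from several families. CREB3L3, a membrane-bound bZIP factor that drives apolipoprotein genes, rose by 0.99, and RXRA, the partner of many liver nuclear receptors, by 0.73. TEF rose by 0.97 (0.61 without background correction) and NFIL3, a repressor at the sites that TEF activates, by 0.73. NR3C1, the glucocorticoid receptor, rose by 0.58 (0.36 without background correction). HHEX rose by 0.42 and NR1H3 (LXR alpha) by 0.31, each with a call that was lost in some alternatives, 6 of 14 for HHEX and 7 of 14 for NR1H3. Among the value-table columns, 21 were tested, and 3 rose (CEBPG by 0.57, KLF15 by 0.37 and CEBPB by 0.23) and 1 fell (ATF5, by 0.39), which is 19.0% against 19.5% of all genes. There the fit with the replicate block called 7 of the 21, against 34.6% of all genes. The calls of the main fit were lost in 7 of 12 alternatives for CEBPB, 3 for KLF15 and 1 for ATF5. ATF5 was thus called lower in both sources. CREB3L3 changed by -0.17 in the value table (limma adjusted p = 0.154, or 0.0361 with the replicate block).

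**Figure D3:**
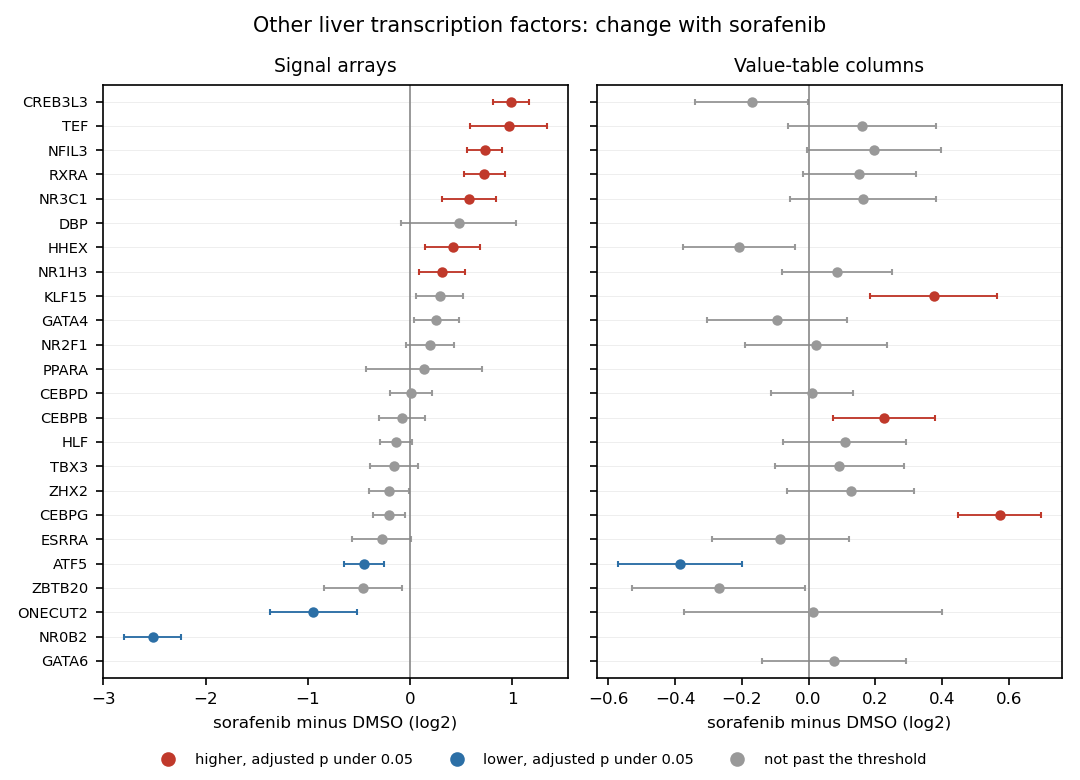
Log2 change, sorafenib minus DMSO (x axis), of the other liver transcription factors tested (y axis), with 95% confidence intervals, for signal arrays (left) and value-table columns (right); the panels have different x ranges, colour gives the call at an adjusted p of 0.05, and an empty place means that no probe passed the filter. NR0B2 lies at -2.52 on the signal arrays, and ATF5 is lower in both panels.

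Genes known to be controlled by the factors were taken from lists for HNF4A, FOXA, CEBPA and NR5A2, which share some genes and hold 43 in all besides the factors. These lists too were chosen with earlier results of these data known, and the shares called carry no test. On the signal arrays 33 were tested, and 14 rose and 7 fell (63.6%, against 31.0% of all genes), with a median change of 0.31. Without OTC, which passed the detection filter through the sorafenib arrays alone, 13 of 32 rose and 7 fell (62.5%). The value table allowed a test of 25, of which 4 rose and 6 fell (40.0%, against 19.5%), with a median of 0.03. Without sorafenib replicate 3 the signal arrays gave 13 calls among the 33, against 2536 of all 10523 genes. The value table gave 4 to 8 calls among the 25 when single columns were left out, against 1077 to 1644 of all 10595 genes.

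Of the 12 listed CEBPA targets, 8 were tested on the signal arrays, and 4 rose and 1 fell (62.5%, against 31.0% of all genes). HAMP, the gene of the iron hormone hepcidin, rose by 0.85 (1.80-fold, limma adjusted p = 0.000335), and CPS1, the first enzyme of the urea cycle, rose by 0.46. HP rose by 0.38 and SERPINA1 by 0.40, and TRIB1, whose product targets C/EBP alpha for degradation, fell by 1.05 (2.07-fold lower, adjusted p = 2.25e-05). The calls were lost in 3 of 14 alternatives for CPS1, 2 for SERPINA1 and 1 for HP. ALB, the albumin gene, changed by 0.01 (adjusted p = 0.968). Of the 7 CEBPA targets tested in the value table, 0 rose and 3 fell (42.9%, against 19.5% of all genes). Those were HAMP (-0.51), HP (-0.51) and TRIB1 (-0.40). HAMP and HP thus passed the test in opposite directions in the 2 sources, and TRIB1 was lower in both, with a value-table call lost in 4 of 12 alternatives.

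Of the 11 FOXA targets, 7 were tested on the signal arrays, and 1 rose (SERPINA1) and 3 fell (57.1%, against 31.0% of all genes). IGFBP1, a secreted binder of insulin-like growth factors, read 6.23, 6.84 and 6.21 on the sorafenib arrays and 8.92, 9.20 and 8.61 on the DMSO arrays. It fell by 2.48 on the log2 scale (5.58-fold, limma adjusted p = 4.77e-05), and by 1.62 without background correction. APOB, the structural protein of very low density lipoprotein, fell by 0.53 and AFP, the fetal albumin homolog, by 0.28. Of the 6 FOXA targets tested in the value table, 0 rose and 1 fell (16.7%, against 19.5% of all genes). That was APOB (-0.21), with a call lost in 8 of 12 alternatives.

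Of the 11 NR5A2 targets, 10 were tested on the signal arrays, and 4 rose and 3 fell (70.0%, against 31.0% of all genes). Those that fell were NR0B2, APOM (-1.06, 2.08-fold lower) and AFP. Those that rose were CYP19A1 (0.81, or 0.48 without background correction), the sterol exporter ABCG8 (0.54), APOA1 (0.47) and the HDL receptor SCARB1 (0.31). The calls for ABCG8 and SCARB1 were each lost in 4 of 14 alternatives. The value table allowed a test of 4, of which 1 was called (25.0%, against 19.5% of all genes). That was APOM, which fell by 0.40, with a call lost in 4 of 12 alternatives. CYP7A1, the rate-limiting enzyme of bile acid synthesis, was not above the filter in either source.

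Of the 26 HNF4A targets, 20 were tested on the signal arrays, and 8 rose and 4 fell (60.0%, against 31.0% of all genes), or 7 and 4 of 19 without OTC. APOC3, an apolipoprotein that slows triglyceride clearance, read 12.89, 13.16 and 13.17 on the sorafenib arrays and 10.93, 11.12 and 11.46 on the DMSO arrays. That is a rise of 1.91 on the log2 scale (3.75-fold, limma adjusted p = 1.35e-05). F7, the gene of coagulation factor VII, rose by 1.13 (0.57 for the mean of its probes) and APOA4 by 1.12. TTR changed by -0.30 (adjusted p = 0.0973, or 0.0393 with the replicate block and 0.0393 to 0.275 over the 14 alternatives). OTC, a urea cycle enzyme, was detected on all 3 sorafenib arrays and on no DMSO array. Its change without background correction was 0.37, and its call was lost in 2 of 13 alternatives. The value table allowed a test of 18, of which 4 rose and 3 fell (38.9%, against 19.5% of all genes). F7 rose by 1.03 there (adjusted p = 0.000612) and so passed the test in the same direction in both sources. CYP27A1 did too, with 0.36 on the signals and 0.26 in the value table. Its calls were lost in 6 of 14 and 7 of 12 alternatives. APOC3 changed by 0.53 in the value table (adjusted p = 0.132, or 1.81e-05 with the replicate block and up to 0.327 over the 12 alternatives).

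**Figure D4:**
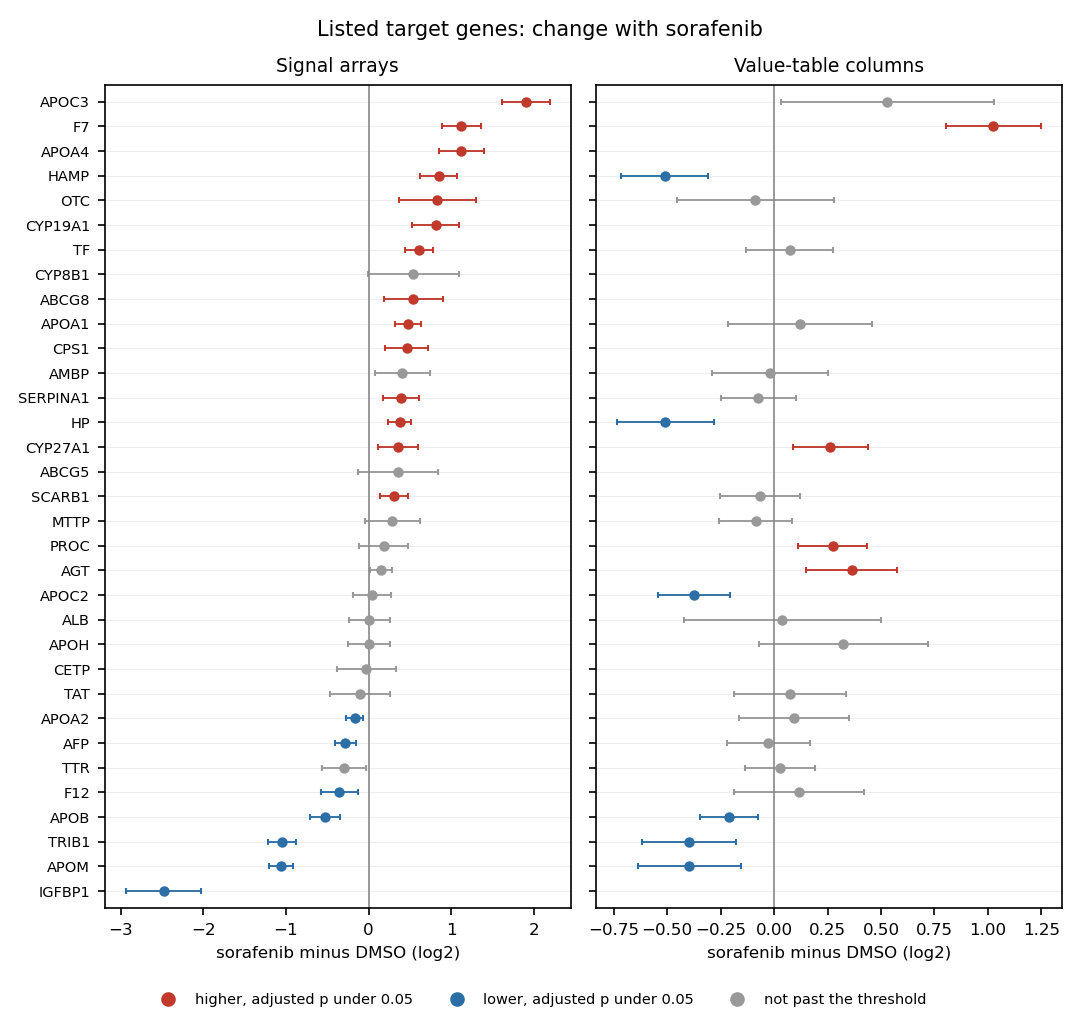
Log2 change, sorafenib minus DMSO (x axis), of the listed target genes tested (y axis), with 95% confidence intervals, for signal arrays (left) and value-table columns (right); the panels have different x ranges, colour gives the call at an adjusted p of 0.05, and an empty place means that no probe passed the filter. F7 and CYP27A1 are called higher and APOB, TRIB1 and APOM lower in both panels, while HAMP and HP are called in opposite directions.

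Among markers of other cell types, the immune sum in both sources and the stromal sum on the signal arrays differed without overlap between the groups. The summed signal of the 7 stromal markers was 11615 to 13411 on the sorafenib arrays and 8063 to 8160 on the DMSO arrays. Of its 2 detected members, ACTA2 rose by 0.65, and PDGFRB was detected on no sorafenib array and on all 3 DMSO arrays. PDGFRB thus passed the filter through the DMSO arrays alone. It read 6.18 to 6.59 there, close to the detection level of 5.99 to 6.19. The stromal sum of the value table was 2066 to 2259 in the sorafenib columns and 1853 to 2173 in the DMSO columns, with overlap. The 6 biliary markers summed to 44088 to 50686 on the sorafenib arrays and 43033 to 46116 on the DMSO arrays, with overlap, and EPCAM among them rose by 0.38. The sum of the 6 immune markers was 7579 to 8411 on the sorafenib arrays and 12218 to 14384 on the DMSO arrays. Of its detected members, LYZ fell by 0.82 on these arrays (limma adjusted p = 0.000123). CD14 changed by -0.23 (adjusted p = 0.113) and CD68 by 0.01 (adjusted p = 0.946). The 10 hepatocyte markers summed to 202951 to 233063 on the sorafenib arrays and 178956 to 210050 on the DMSO arrays, with overlap. The immune sum of the value table was 5937 to 8615 in the sorafenib columns and 12050 to 13607 in the DMSO columns. The part of these markers in the changes of the transcription factors was not tested.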

How the data were processed

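RNA of 6 samples, 3 treated with sorafenib and 3 with DMSO, was read on a beadchip with 47323 probes. The authors deposited non-normalized probe intensity values with a detection p-value per probe and array, per the file headers, and a value table whose scale is unstated. That deposited table was taken as log2 from its range of 6.08 to 15.9. All its columns have a median of 7.10, and its normalization is not given in the sources used here. Replicate samples were grouped by their titles, and no column of another series was found (0).

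Intensities were background-corrected from detection p-values, quantile-normalized and put on a log2 scale with an offset of 16 (limma 3.58.1 neqc, R 4.3.3). A probe was kept where 3 or more of the 6 arrays gave a detection p below 0.01 (17115 probes). Value-table probes above 7.40, the matching level, on at least 3 columns were kept (17122). Sorafenib minus DMSO was tested with limma lmFit and eBayes with an intensity trend, and Benjamini-Hochberg adjustment over all kept probes at 0.05. The fit was first run on simulated data whose noise was independent between arrays and unrelated to level. That run cannot show how the fit handles shared noise or noise that varies with level. The kept probe of highest mean level stood for its gene. Of the probes, 30113 had 1 symbol in the platform annotation, 8 had several and 17202 had none. Folds of dim probes are understated by the offset.

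Same-numbered samples deviated together. The correlations of their deviations from the group means were 0.321 to 0.384 on the signal arrays and 0.317 to 0.666 in the value table. Pairs of different number had -0.353 to 0.033 on the signal arrays and -0.518 to 0.294 in the value table. The titles do not state a pairing. The main fit left this shared deviation out, and a fit with replicate number as a block was an alternative. The fit with this block is given where it changed a call. Alternatives were no background correction, median scaling, no dim-probe filter, a filter on all 6 arrays, the replicate block, no trend, array weights, the mean of a gene's probes, leaving out each replicate, and the value table in place of the signals.

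The members and gene lists were chosen with earlier results of these data known. Named were all listed factors with every probe, up to 8 higher and 8 lower genes of the other lists by size of change in each source, NR0B2, ALB, AFP, TTR, APOA1 and SERPINA1, and for each factor the 2 genes of most similar profile. Some genes that the rule also lists are not reported here. CPS1, SCARB1 and CYP7A1 fall outside the rule and were chosen after their values were seen.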

Additional observations from a re-analysis of the deposited data

Results flagged for a closer look

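NR5A2 probe ILMN_2366654 was lower on every sorafenib array than on any DMSO array among the signals (log2 change -0.44) and higher in every sorafenib column than in any DMSO column of the value table (0.27). The same opposite pattern was found for 5 of the other genes named: CEBPG (-0.20 on the signals and 0.57 in the value table), CREB3L3 (0.99 and -0.17), HAMP (0.85 and -0.51), HHEX (0.42 and -0.21) and HP (0.38 and -0.51). The difference between the sources was not tested for any of the 6 genes. Groups did not overlap for 47.5% of all genes on the signal arrays and 39.8% in the value table.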

How the results depend on the processing

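On the signal arrays the main fit called 5 factors, 10 other liver transcription factors, 21 target genes and 3264 genes in all. Median scaling gave 3 factors and 1805 genes, and the replicate block gave 16 other liver transcription factors and 4627 genes in all. The value table in place of the signals gave 1, 4, 10 and 2065. Leaving out 1 array at a time gave 4 to 5 factors, 8 to 12 other liver transcription factors, 13 to 22 target genes and 2153 to 3039 genes. In the value table the main fit called 1, 4, 10 and 2065. Pairing by the replicate block gave 3 factors, 7 other liver transcription factors and 3662 genes. Leaving out 1 column at a time gave 1 to 2, 1 to 4, 4 to 8 and 1077 to 1644. The replicate block also moved past the threshold AGT (0.15), CEBPG (-0.20), KLF15 (0.29), ONECUT1 (0.44) and TTR (-0.30) on the signals, and APOC3 (0.53), CREB3L3 (-0.17), HHEX (-0.21), NR5A2 (0.25) and ONECUT1 (0.64) in the value table, and changed no other call among the named genes. Signs turned with the value table in place of the signals for APOA2 (0.094), APOC2 (-0.37), CEBPA (-0.039), CEBPB (0.23), CEBPG (0.57), CREB3L3 (-0.17), F12 (0.12), HAMP (-0.51), HHEX (-0.21), HP (-0.51), NR5A2 (0.25), ONECUT2 (0.012), OTC (-0.088), SCARB1 (-0.066), SERPINA1 (-0.075) and TTR (0.029). On the signals ALB turned with median scaling (-0.00248) and array weights (-0.015). In the value table ALB turned with array weights (-0.092) and the mean of its probes (-0.041), and ONECUT2 with the mean of its probes (-0.026). With single arrays left out, signs turned on the signals for ALB (-0.093 to 0.12), APOC2 (-0.051 to 0.13), PROX1 (-0.076 to 0.25) and CEBPB (-0.17 to 0.044). In the value table they turned for ALB (-0.19 to 0.23), CEBPA (-0.084 to 0.022), FOXA3 (-0.016 to 0.073), ONECUT2 (-0.12 to 0.24), PROX1 (-0.16 to 0.33), TTR (-0.031 to 0.073), AFP (-0.12 to 0.049), OTC (-0.24 to 0.083), APOA1 (-0.015 to 0.29) and APOA2 (-0.020 to 0.19). None of these genes was called in the source and fit where its sign turned with a replicate left out. Without background correction dim probes changed less: CYP19A1 0.48, TEF 0.61, NR3C1 0.36 and OTC 0.37. FOXA1, FOXA2 and CEBPA kept their call on the signals in all 14 alternatives. The causes were not tested. The limits are 3 arrays a group, a dose unit taken as labelled, and a value table that holds other arrays than the signals under the same sample names.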
